A study of Mus musculus with 3 samples.

Results

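YAP and TAZ, the TEAD transcription factors they work through, and 4 of their best known targets were followed in CUT&Tag peak lists of Pan02 cells, a mouse pancreatic ductal adenocarcinoma line. The 10 genes, of 21887 protein-coding genes on placed chromosomes, were taken from a list of Hippo effectors, each by its RefSeq symbol: Yap1, Wwtr1 (which encodes TAZ), Tead1, Tead2, Tead3, Tead4, Ccn1 (Cyr61), Ccn2 (Ctgf), Ankrd1 and Amotl2. For each gene all peaks with a summit in the gene or in the 50 kb around it were collected. Distances of shared sites are those of the POH1-Flag summit unless both are given. Summits within 1 kb of either end of the gene are called gene-end peaks here, and the others farther peaks. All positions are on GRCm38.

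The study made 3 libraries, with 1 library per group: Flag in Pan02 cells that stably express POH1-Flag, MYC in Pan02 cells that carry the vector, and MYC in cells of the POH1-Flag line. POH1, encoded by Psmd14, is a deubiquitinase of the proteasome, and Flag is the peptide tag by which it was detected. In CUT&Tag an antibody guides a transposase to its target, and the DNA cut there is sequenced. The labels do not say whether each line is 1 clone or a pool, nor which promoter drives POH1-Flag. Without replicates no difference between the groups could be tested, and every interval below covers counting error within a library only. The deposited lists held 2936, 12175 and 22647 peaks, and the estimated depth relative to the vector library was 1.05 (Flag) and 1.06 (MYC, POH1-Flag line). Peaks were scored by the number of reads at the summit, called the pileup, recovered from the deposited values. Of 28 marker genes for cell types of the pancreas and its stroma, Vim and Sox9 had gene-end MYC peaks in both lines and Krt7 and Cd68 in POH1-Flag cells only. The epithelial markers Krt8, Krt18, Krt19, Epcam and Cdh1, the mesenchymal markers Zeb1, Cdh2 and Snai2 and the immune markers Ptprc and Cd3e had none, and acinar, endocrine, fibroblast and endothelial markers also had none. By the same rule 28.2% and 40% of all protein-coding genes had one in vector and POH1-Flag cells, and a MYC peak does not measure expression of the gene.

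The Hippo pathway is a kinase cascade that restrains growth. Its kinases phosphorylate YAP and TAZ and thereby keep them out of the nucleus. In the nucleus YAP and TAZ, which do not bind DNA themselves, join TEAD proteins at DNA with the core letters GGAATG and activate genes for growth, matrix and the cytoskeleton. In pancreatic ductal adenocarcinoma YAP is known as a driver of tumour growth, and MYC, which binds E-box letters CACGTG together with MAX, is known as a factor that acts at many of the same growth genes.

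The promoters of these genes are shown first because the gene-end MYC peaks lay at the start of transcription wherever the strand is known. RefSeq promoter windows of GRCm38.p6 matched 7 of the 10 genes, in 10 windows. Tead1, Tead4 and Ccn2 had no entry. Motifs were searched in the 250 bases before each start site. The part of each window outside the annotated gene is printed, 5′ to 3′ on the strand of the gene, with E-box (CACGTG) and TEAD core letters (GGAATG, or CATTCC where the match is on the other strand) in capitals. For Wwtr1 and Tead3, which have several windows, the one farthest upstream is shown. The window of Amotl2 (chr9:102717554-102717803, plus strand) lies within the annotated gene and is not printed. Yap1 is shown at chr9:8004639-8004846 (minus strand), Wwtr1 at chr3:57575911-57576160 (minus strand), Tead2 at chr7:45215542-45215791 (plus strand), Tead3 at chr17:28350806-28351055 (minus strand), Ccn1 at chr3:145649986-145650235 (minus strand) and Ankrd1 at chr19:36119845-36120094 (minus strand).
Yap1: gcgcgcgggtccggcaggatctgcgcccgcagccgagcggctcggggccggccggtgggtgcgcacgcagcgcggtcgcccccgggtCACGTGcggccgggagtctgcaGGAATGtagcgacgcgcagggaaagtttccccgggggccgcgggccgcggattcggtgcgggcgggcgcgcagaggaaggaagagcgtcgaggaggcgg
Wwtr1: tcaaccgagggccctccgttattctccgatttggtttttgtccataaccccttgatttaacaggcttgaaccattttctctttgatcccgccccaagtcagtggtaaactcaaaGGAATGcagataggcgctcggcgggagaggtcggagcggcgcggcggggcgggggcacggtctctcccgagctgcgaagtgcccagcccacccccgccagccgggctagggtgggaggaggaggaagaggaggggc
Tead2: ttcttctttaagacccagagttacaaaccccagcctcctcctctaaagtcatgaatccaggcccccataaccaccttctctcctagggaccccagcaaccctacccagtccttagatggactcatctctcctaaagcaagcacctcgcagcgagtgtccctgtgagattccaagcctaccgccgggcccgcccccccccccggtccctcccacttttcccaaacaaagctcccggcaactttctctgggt
Tead3: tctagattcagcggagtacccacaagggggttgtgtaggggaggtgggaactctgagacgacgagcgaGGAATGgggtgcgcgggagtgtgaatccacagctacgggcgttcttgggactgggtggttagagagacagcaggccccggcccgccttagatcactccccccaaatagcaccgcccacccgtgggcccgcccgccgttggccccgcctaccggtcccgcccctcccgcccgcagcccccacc
Ccn1: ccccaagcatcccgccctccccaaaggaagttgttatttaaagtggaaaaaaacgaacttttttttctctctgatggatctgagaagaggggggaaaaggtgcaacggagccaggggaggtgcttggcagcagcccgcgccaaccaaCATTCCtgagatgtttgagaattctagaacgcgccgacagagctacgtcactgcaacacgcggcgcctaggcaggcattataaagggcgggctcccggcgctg
Ankrd1: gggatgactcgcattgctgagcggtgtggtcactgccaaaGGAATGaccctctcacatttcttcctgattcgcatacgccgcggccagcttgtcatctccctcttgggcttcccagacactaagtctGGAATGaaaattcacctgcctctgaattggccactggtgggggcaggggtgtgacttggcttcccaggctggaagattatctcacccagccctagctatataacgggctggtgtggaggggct

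TEAD core letters were found on either strand in windows of 6 of the 7 genes, with Tead2 as the exception. Among all 17492 protein-coding genes with a window of this length, 13.5% held them in at least 1 window (11.7% of 21263 windows). Wwtr1, Ccn1 and Amotl2 held 1 match each in the first window, and so did Yap1 and Tead3, while Ankrd1 held 2. The second window of Tead3, which lies largely inside the gene, held 2 further matches. An E-box was found in Yap1 alone, against 7.61% of all genes. AP-1 letters (TGACTCA, either strand) were in none of the 10 windows, against 4.77% of all genes. In Yap1 the E-box and the TEAD core letters did not overlap. A match describes the letters of the window and not binding. The window of Yap1 was rich in CpG, with 44 in its 250 bases. Wwtr1 had 18, Tead3 20, Amotl2 21 and Ccn1 15, against a median of 10 over all windows, whereas Tead2 and Ankrd1 had 7 each.

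MYC peaks lay at the ends of 7 of the 10 genes in vector cells and of 9 in POH1-Flag cells. By the same rule 28.2% of all protein-coding genes had a gene-end peak in vector cells and 40% in POH1-Flag cells. Tead3 and Tead4 had a gene-end peak in POH1-Flag cells only, as did 12.4% of all genes, and no gene of the 10 had one in vector cells only. All 7 others with a gene-end peak had one in both lines, against 27.6% of all genes. Genome-wide, 6049 of the 6172 genes with a gene-end peak in vector cells had one in both lines. A gene-end peak in vector cells only was thus rare among all genes too. Tead2 had no peak of any library in the gene or within 50 kb. Flag had no gene-end peak at any of the 10 genes, and 0.196% of all genes had one. Where the promoter table gives the strand, the 12 gene-end peaks of 6 genes were all at the end where transcription starts. The same share over all genes is not given, so this cannot be read as particular to these genes. The count in vector cells rested on weak peaks. At the authors' −log10 q of at least 5 it fell to 2 genes, Wwtr1 and Amotl2, close to the 18.9% of all genes that passed, and at 10 or more to 0. In POH1-Flag cells 9 genes stayed at 5 or more, against 33.9% of all genes, and 3 at 10 or more (Wwtr1, Tead4 and Amotl2), against 20.1%.

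Gene-end pileups were close to those of other genes with a gene-end peak. In vector cells the highest gene-end pileup was 13 reads at Yap1, 18 at Wwtr1, 11 at Tead1, 18 at Ccn1, 9 at Ccn2, 11 at Ankrd1 and 17 at Amotl2. The median over all genes with such a peak was 15. In POH1-Flag cells it was 19 reads at Yap1, 30 at Wwtr1, 14 at Tead1, 22 at Tead3, 32 at Tead4, 29 at Ccn1, 20 at Ccn2, 16 at Ankrd1 and 31 at Amotl2, with a median over all genes of 21. Wwtr1, Ccn1 and Amotl2 were thus above the median in both lines, at the 64.7, 64.7 and 60th percentile in vector cells and the 75.5, 73.3 and 77.5th in POH1-Flag cells. Yap1, Tead1, Ccn2 and Ankrd1 were below it in both. Within either line neighbours in this order differed by at most 4 reads in vector cells and 7 in POH1-Flag cells, which is within counting error.

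**Figure D1:**
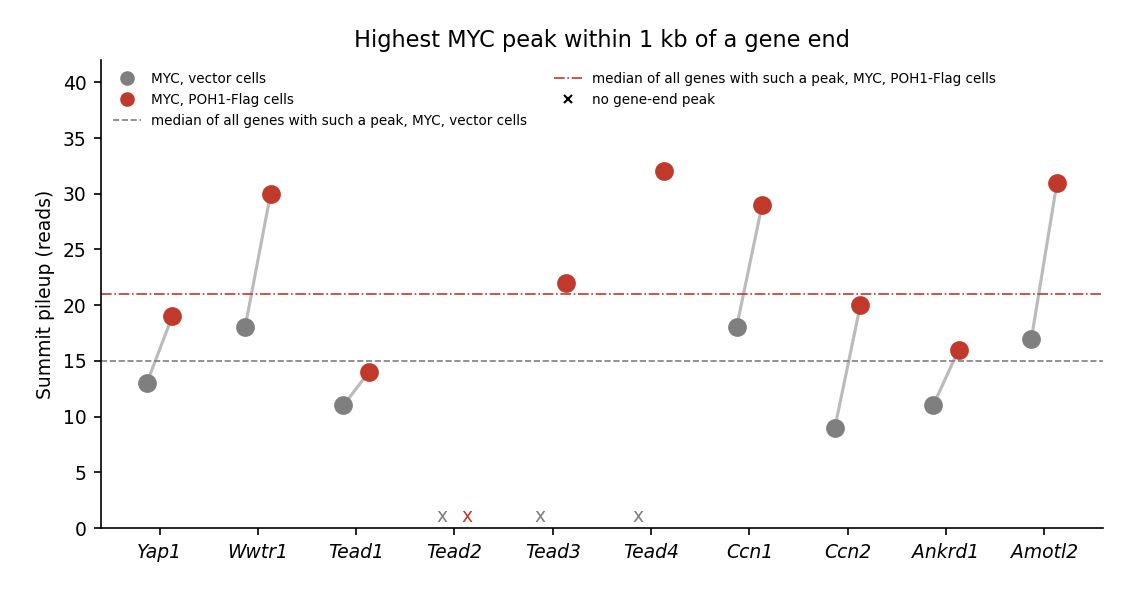
Summit pileup in reads (y axis) of the highest MYC peak within 1 kb of an end of each gene (x axis), in vector cells (grey) and POH1-Flag cells (red), 1 library each, with dashed lines at the medians over all genes with such a peak (15 and 21 reads). Crosses mark genes without one, grey lines join the values of a gene (at Yap1 they belong to peaks that do not overlap), and red points lie above grey at all 7 genes with both. Of the gene-end sites shared by the 2 lines genome-wide, 98.2% were also higher in POH1-Flag cells.

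Both co-activator genes had a MYC peak at the start. Yap1 (chromosome 9, 7931999 to 8004638) had a single vector peak of 13 reads, whose summit at 8004160 lay inside the gene and 478 bp from its end. POH1-Flag cells had a pair of peaks there, 1 of 16 reads at 8003596, 1042 bp inside the gene, and 1 of 19 reads at 8004761, 123 bp outside it. The vector peak overlapped the inner of these and not the outer, so the gene-end call of Yap1 came from different sites in the 2 lines. With the inner pair taken as 1 site the pileup ratio, POH1-Flag over vector, was 1.26 (95% interval 0.568 to 2.85). The middle of the E-box printed above was 5 bp from the outer summit in POH1-Flag cells and 596 bp from the vector summit. The only Flag peak in the windows of the 10 genes lay at 8029715, 25077 bp outside Yap1, with 14 reads, and met no MYC peak. Its nearest gene end was that of Cfap300, at 8043 bp.

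Wwtr1, the gene of TAZ (chromosome 3, 57455644 to 57575910), had 3 vector and 7 POH1-Flag peaks. At the start the summits were at 57576081 in vector cells (18 reads) and 57576025 in POH1-Flag cells (30 reads). They lay 171 and 115 bp before the start site, 38 and 18 bp from the middle of the TEAD core letters. The ratio was 1.71 (0.920 to 3.25). A second gene-end peak of 16 reads, 718 bp from the end, was called in POH1-Flag cells only and was the farthest from an end among the gene-end peaks. Inside the gene a site 46317 bp from the nearest end had 14 and 27 reads (1.97, 0.9992 to 4.07), and a site 13592 bp from the start had 10 and 11 reads (1.13, 0.434 to 2.96). POH1-Flag cells also had 8 reads at an intragenic site 20189 bp from the start, and 16 and 8 reads at sites 43836 and 20050 bp beyond the other end of the gene. Those 3 sites met no vector peak. Both sites beyond the gene were nearer to an end of Tm4sf4, at 13602 and 6083 bp.

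The TEAD genes encode the DNA-binding partners of YAP and TAZ. Together they had 5 farther MYC peaks inside the gene against 1 gene-end peak in the vector list, and 10 against 3 in the other. Tead1 alone held 3 of the 5 and 6 of the 10, and gene length was not allowed for. Tead3 had 1 of each kind in POH1-Flag cells. Outside the family Wwtr1 and Amotl2 also had more inside than at the ends there (3 against 2 and 3 against 1). Tead1 (chromosome 7, 112679356 to 112906784), the longest of the 10 genes, had 5 vector and 8 POH1-Flag peaks. Its gene-end site, 72 and 91 bp from the lower-coordinate end, was the weakest of the 9 genes in POH1-Flag cells, with 11 and 14 reads (ratio 1.302, 0.549 to 3.17). Among its intragenic sites, the site 17681 bp from that end had 16 and 26 reads (1.66, 0.859 to 3.32), and the site 40938 bp from it had 16 and 17 reads (1.09, 0.517 to 2.299). The shared site farthest from either end, at 82959 bp, had 10 and 25 reads, with a ratio of 2.56 and an interval above 1 (1.19 to 5.97). A site 34990 bp outside the gene had 10 and 16 reads (1.64, 0.699 to 4.04). Intragenic peaks of 16, 13 and 13 reads were called in POH1-Flag cells only.

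Tead3 (chromosome 17, 28331671 to 28350805) held the highest pileup of the 10 genes in either MYC library, and it was not at a gene end. At 28341010 in vector cells and 28341041 in POH1-Flag cells, inside the gene and 9339 and 9370 bp from an end, there were 30 and 48 reads (ratio 1.64, 1.02 to 2.68). These summits had the authors' −log10 q of 15.3 and 24.6. At the start of Tead3 the vector list had no peak, whereas POH1-Flag cells had 22 reads at 28351023, 218 bp before the start site and 39 bp from the middle of the TEAD core letters printed above. A pair of farther sites in the Tead3 window belonged to the ends of neighbours. The site at Rpl10a, which encodes a ribosomal protein, had 28 and 38 reads (1.39, 0.830 to 2.35) at 65 and 83 bp from the end of that gene. At Fance, a Fanconi anaemia DNA repair gene, there were 16 and 32 reads (2.05, 1.09 to 3.99). A further peak of 12 reads 24740 bp outside Tead3 was called in POH1-Flag cells only, and its nearest gene end was that of Tulp1, at 10329 bp.

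Tead4 (chromosome 6, 128227143 to 128300813) went from no gene-end peak in vector cells to the highest gene-end pileup of the 10 genes in POH1-Flag cells. That peak had 32 reads at 128300693, 120 bp inside the higher-coordinate end, and a second peak of 31 reads lay 4132 bp inside the gene. The vector list had neither, and a peak list does not give the reads of places without a peak. The authors' −log10 q of the POH1-Flag peaks was 11.01 and 10.5. A peak of 15 reads 24963 bp from the nearest end was also called in POH1-Flag cells only. Sites present in both lines were 1 inside the gene, 18451 bp from an end, with 11 and 24 reads (2.23, 1.05 to 5.05), and 1 outside the gene at 26421 bp, with 16 and 27 reads (1.73, 0.897 to 3.43). Tead2 (chromosome 7, 45215792 to 45233468) was the exception in the family, with no peak in a window in which 62.7% of all genes had a vector peak and 75.6% a POH1-Flag MYC peak. Counting the other 9 genes, 90% of the 10 had a peak in the window in each MYC library. One of 10 had a Flag peak, against 10.8% of all genes.

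The 4 targets each had a gene-end MYC site in both lines. Ccn1 and Ccn2 encode secreted matrix proteins and are the usual readouts of YAP activity. Ccn1 (chromosome 3, 145646971 to 145649985) had 18 and 29 reads at summits 231 and 180 bp before the start site (ratio 1.65, 0.885 to 3.15). The fold of these peaks over their surroundings was low, at 3.58 and 3.49 by the authors' values, with a local background of 4.31 reads in vector and 7.595 in POH1-Flag cells. A second peak 3209 bp before the start, of 25 reads, was called in POH1-Flag cells only, and a site 35211 bp away had 13 reads in both lines (1.02, 0.437 to 2.396).

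Ccn2 (chromosome 10, 24595442 to 24598683) had the weakest gene-end peak of the 10 genes in vector cells, 9 reads at 450 bp inside the lower-coordinate end. The POH1-Flag peak had 20 reads at 341 bp inside it (ratio 2.27, 0.9897 to 5.67). The farther site of Ccn2, 37182 bp outside the gene and 2049 bp from the nearest end of Enpp1, had 10 and 33 reads. Its ratio of 3.38 (1.63 to 7.68) was the highest of the 21 shared sites of the 10 genes and at the 99.8th percentile of shared MYC sites. The median of all shared sites was 1.55. Because the site was picked as the highest of the 21, its interval is no test against that median. Its local background was 2.56 times as high in POH1-Flag as in vector cells, also the highest of the 21. Over local background the ratio of this site was 1.29.

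Ankrd1, which encodes a muscle and stress protein induced by YAP (chromosome 19, 36111965 to 36119844), had its only vector peak at the start. There were 11 and 16 reads, with summits at 36119927 and 36119926, 1 bp apart, and 37 and 38 bp from the middle of the nearer TEAD core letters (ratio 1.49, 0.649 to 3.55). POH1-Flag cells had 15 reads at a further site 9318 bp before the start, and 14 reads at the end of the neighbour Rpp30, which encodes a subunit of ribonuclease P. Neither met a vector peak.

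Amotl2 encodes an angiomotin that binds YAP and restrains it, and it is itself induced by YAP (chromosome 9, 102717091 to 102733418). Its gene-end site had 17 and 31 reads at 102717474 and 102717497, 330 and 307 bp before the start site of the promoter table (ratio 1.87, 1.001 to 3.59). This was the only gene-end site of the 10 genes whose interval lay above 1, by a margin in the third decimal. Just past the 1 kb limit, a second site 1163 and 1282 bp inside the gene had 10 and 15 reads (1.54, 0.645 to 3.82). POH1-Flag cells had 5 further peaks without a vector partner. Those of 16 and 14 reads lay inside the gene, and those of 20, 22 and 18 reads stood together 44073 to 46282 bp beyond its other end.

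**Figure D2:**
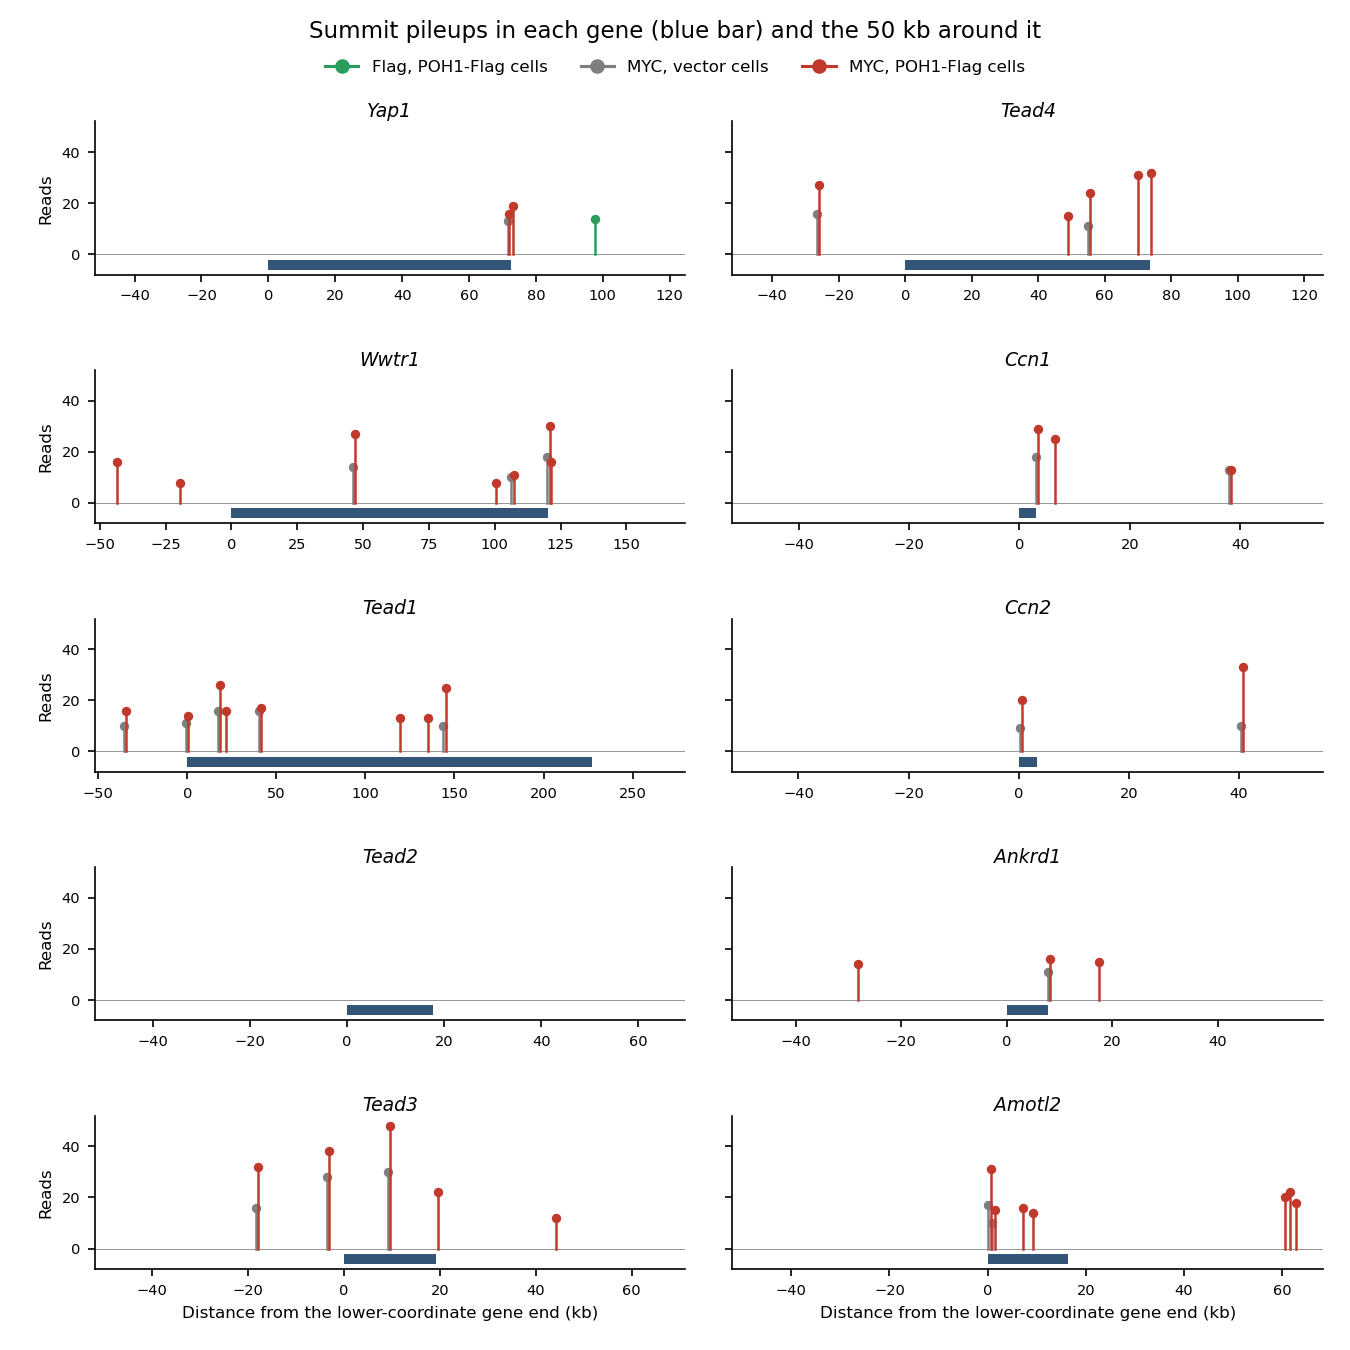
Position of every peak summit in each gene and the 50 kb around it (x axis, kb from the lower-coordinate gene end) against its pileup in reads (y axis), for Flag (green), MYC in vector cells (grey) and MYC in POH1-Flag cells (red), with the gene as a blue bar and the MYC symbols of the 2 lines shifted slightly apart to show both. Tead2 is empty, the single Flag peak lies outside Yap1, and the highest point, 48 reads, is inside Tead3.

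Across the 10 windows, 1561 kb in all, there were 21 vector MYC peaks (7 at gene ends and 14 farther), 42 POH1-Flag MYC peaks (10 and 32) and 1 Flag peak. Of the farther peaks 8 and 17 lay inside the gene, and 2 and 3 lay within 1 kb of an end of a neighbour (Fance and Rpl10a in both lines and Rpp30 in POH1-Flag cells). This was 1.35 and 2.69 peaks per 100 kb, against 0.992 and 1.69 over the windows of all protein-coding genes. In 8 of the 10 genes the window held more peaks in POH1-Flag than in vector cells, and in 55.4% of all genes. Ccn2 had 2 in each and Tead2 none. With the POH1-Flag list shortened to its 12175 strongest peaks, the length of the vector list, 9 genes still had a gene-end peak, against 31.6% of all genes, but the farther peaks fell from 32 to 20.

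All 21 vector peaks of the 10 windows met a POH1-Flag MYC peak, whereas 15.4% of all vector peaks on placed chromosomes met none. Of the 42 POH1-Flag peaks 21 met no vector peak (50%), close to the 55% of all POH1-Flag MYC peaks. None of the 21 or 42 MYC peaks met a Flag peak, against 10.2% of all vector and 6.04% of all POH1-Flag MYC peaks. These shares depend on position. Genome-wide, 5163 of 5187 shared MYC sites at gene ends met no Flag peak, and 3948 of 4742 farther ones met none. For the gene-end peaks of the 10 genes the absence of Flag was thus like that at other gene ends.

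At the 21 shared sites pileups, divided by the genome-wide background of each library, gave ratios from 1.02 to 3.38, all above 1, with a median of 1.65 (median log2 ratio 0.72). Without scaling, and with scaling by depth per kb, 20 of the 21 were above 1. The exception in both was the site 35211 bp from Ccn1, at 1.0 and 0.944. Over all 9929 shared MYC sites 91% were higher, with a median log2 ratio of 0.63. The 6 gene-end sites had a median of 0.75, against 0.71 over 5187 gene-end sites genome-wide, of which 98.2% were higher. The 14 farther sites, which include those at the ends of Fance and Rpl10a, had a median of 0.72. The 12 not at a neighbour also had 0.72. Sites more than 1 kb from any gene end had 0.52 over 4742 sites genome-wide. The 3948 of these that, like the 14, met no Flag peak had 0.59. An interval above 1 was found at 6 of the 21 sites (28.6%), at Tead1, Tead3, Tead4, Ccn2, Amotl2 and the end of Fance, and at 20.2% of all shared sites. The shift at the 10 genes was therefore of the size seen across the genome.

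The ratio depended on the background chosen. The local background of the same peaks was also higher in POH1-Flag cells at 20 of the 21 sites, 1.64-fold in the median (0.867 to 2.56), and 1.49-fold in the median of all shared sites. With each pileup divided by its own local background the median log2 ratio was 0.0037 at the 10 genes and 0.04 over all shared sites, and 10 of the 21 sites were below 1. The recovered local background was thus higher together with the summit pileups, and the pileups over it did not differ in one direction. Whether this background came from a control or from the same library is not stated. It may therefore include reads of the peaks themselves, and dividing by it may remove part of a difference at the summit. The part of the higher background in the higher pileups was not tested.

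**Figure D3:**
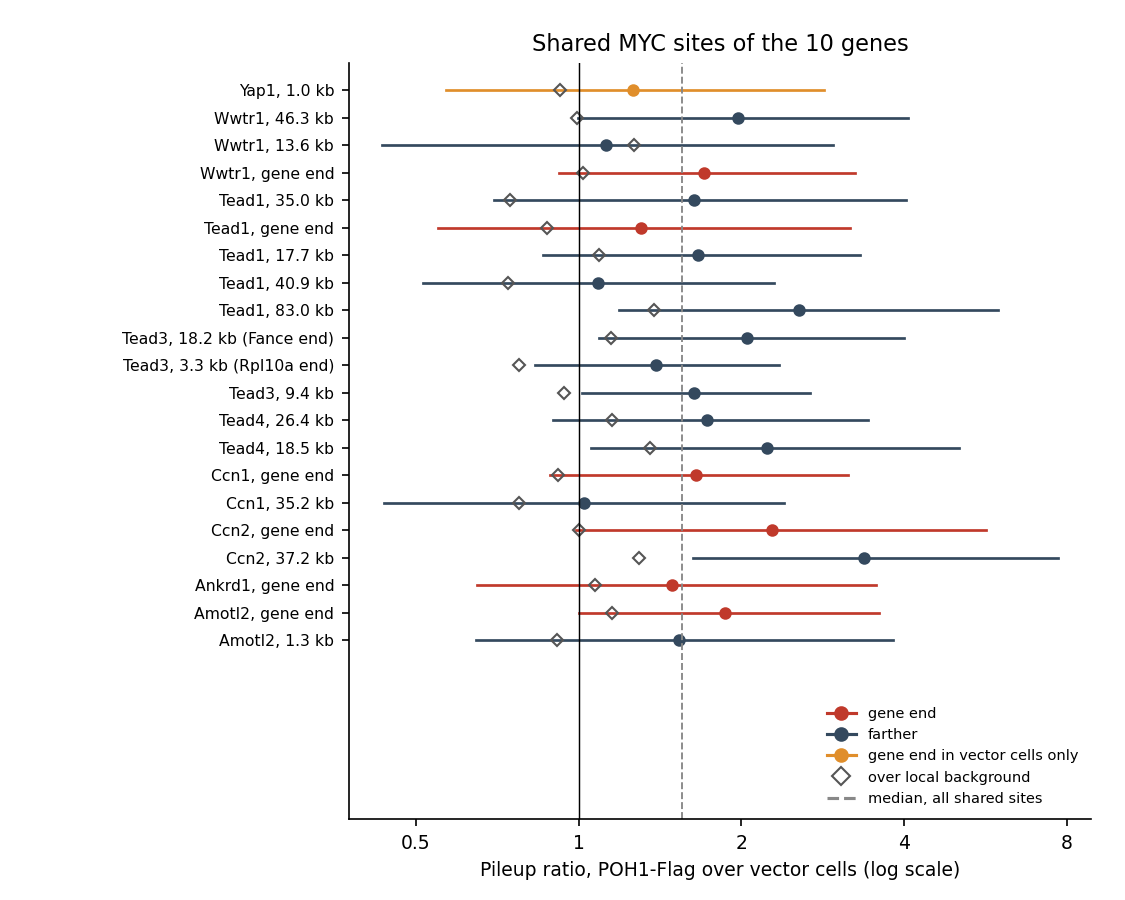
Ratio of summit pileups in POH1-Flag over vector cells at the 21 shared MYC sites (x axis, log scale; y axis, gene and distance of the POH1-Flag summit from its nearest end), with exact 95% counting intervals, for gene-end (red), farther (blue) and Yap1 (orange) sites. The points lie from 1.02 to 3.38 around the dashed genome-wide median of 1.55, while the open diamonds, the ratios over local background, lie on both sides of 1.

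The rest of the Hippo pathway was followed through 5 lists with 56 entries, all matched. Their counts are to be read beside the shares of all protein-coding genes with a gene-end MYC peak, which were 28.2% in vector cells, 40% in POH1-Flag cells and 12.4% in the latter only. In the kinase cassette all 8 genes had a gene-end MYC peak in POH1-Flag cells and 5 in vector cells, the 3 others being the kinase genes Stk4 (19 reads) and Lats2 (17 reads) and Mob1b (14 reads), which encodes a scaffold of the LATS kinases. The largest −log10 q was at Nf2, the tumour suppressor merlin that activates the cascade, with 20 and 37 reads (ratio 1.89, 1.07 to 3.44). Stk3, an upstream kinase, had 17 and 22 reads (1.32, 0.671 to 2.66), and Mob1a had 14 and 23 (1.68, 0.829 to 3.53). Lats1 had 14 reads in both lines (1.02, 0.452 to 2.32).

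Of 16 upstream regulators 6 had a gene-end peak in vector cells (37.5%, against 28.2% of all genes) and 8 in POH1-Flag cells (50%, against 40%). The 2 found in POH1-Flag cells only were 12.5% of the list, near the 12.4% of all genes. Frmd6, a membrane protein that feeds into the cascade, had 37 and 57 reads (1.58, 1.02 to 2.45). The scaffold gene Wwc2 had 18 and 33 (1.88, 1.03 to 3.54), and the phosphatase gene Ptpn14, which holds YAP in the cytoplasm, had 12 and 32 (2.73, 1.37 to 5.82). Limd1 and Ajuba, whose LIM proteins inhibit LATS, had peaks of 12 and 19 reads in POH1-Flag cells only. The atypical cadherin genes Fat1, Fat4 and Dchs1 had none in either line.

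Among 10 genes of the STRIPAK phosphatase complex, which opposes the Hippo kinases, and of YAP turnover, 6 had a gene-end peak in vector cells (60.0%, against 28.2% of all genes) and 9 in POH1-Flag cells (90.0%, against 40%). Strn3 had 28 and 42 reads (1.54, 0.929 to 2.57), Sike1 17 and 27 (1.63, 0.854 to 3.18) and Strn 10 and 23 (2.35, 1.08 to 5.54). Strn4 (13 reads), Slmap (14) and the casein kinase gene Csnk1e (13) had one in POH1-Flag cells only. Of the 4 TEAD cofactor genes Vgll4, a repressor that competes with YAP for TEAD, had 16 and 19 reads at different sites near its ends, and Vgll1, Vgll2 and Vgll3 had no gene-end peak. This 1 of 4 (25.0%) stands beside 28.2% and 40% of all genes, and with 4 genes this count cannot be told apart from either share.

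Of 18 further genes of a YAP signature 5 had a gene-end peak in vector cells (27.8%, near the 28.2% of all genes) and 10 in POH1-Flag cells (55.6%, against 40%). Besides Ptpn14 the largest −log10 q were at Gadd45a, a DNA damage gene, with 25 and 26 reads (1.06, 0.591 to 1.92), and the tissue factor gene F3, with 14 and 23 reads (1.68, 0.829 to 3.53). Lats2, the receptor kinase gene Axl (20 reads), Nt5e (10), Dock5 (17) and Asap1 (16) had one in POH1-Flag cells only. No gene of the 5 lists had a gene-end Flag peak, against 0.196% of all genes. None had a gene-end MYC peak in vector cells only. That was rare among all genes too, as 6049 of the 6172 with a vector gene-end peak had one in both lines.

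**Figure D4:**
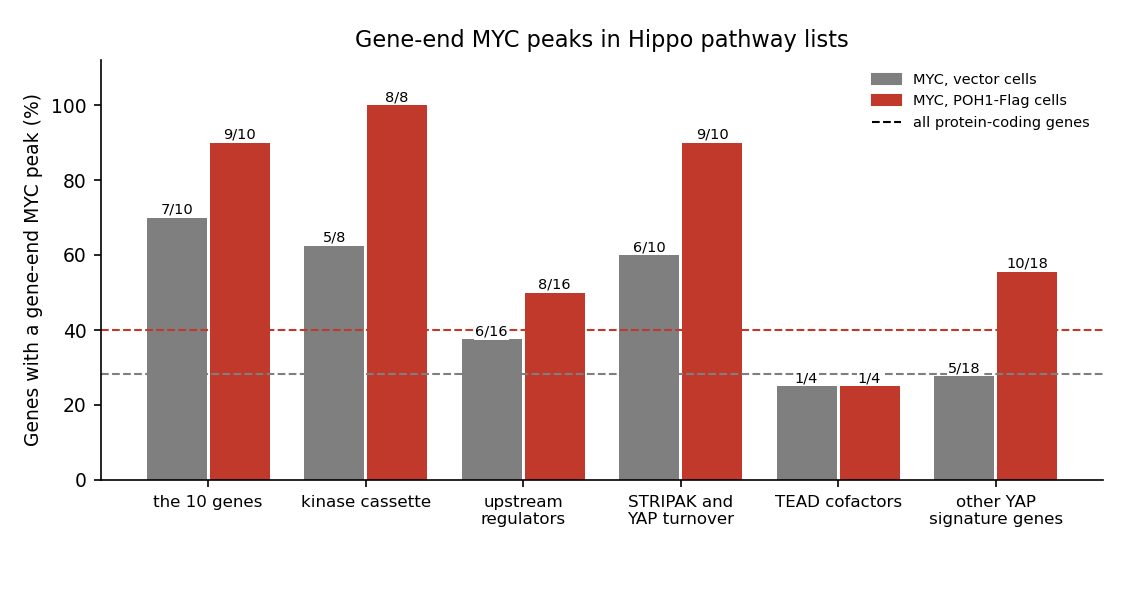
Percent of genes with a MYC peak within 1 kb of a gene end (y axis, bars from 0) in the 10 genes and the 5 pathway lists (x axis), in vector (grey) and POH1-Flag cells (red), with counts above the bars and dashed lines at the shares of all protein-coding genes (28.2% and 40%). The kinase cassette reaches 8 of 8 genes in POH1-Flag cells, and the TEAD cofactors have 1 of 4 in either line.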

How the data were processed

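The data are 3 narrowPeak lists without a header, 1 per library. Per the submitters' processing notes MACS2 2.2.7.1 and BWA 0.7.17-r1188 were used on GRCm38/mm10, besides Trim Galore 0.6.6 and FastQC 0.11.9. For parameters, a control library and duplicate handling the sources used here say nothing. Per peak the authors deposited a fold enrichment (a linear ratio), −log10 p, −log10 q and an integer score, which was not used. Fold and q served to describe or filter peaks within a list.

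The pileup k and local background λ at each summit were recovered by solving the fold, (k + 1)/(λ + 1), jointly with the p of a Poisson tail above k. In every list 100% of pileups came out whole, within 0.01 of a read. The lowest λ (0.946, 0.845 and 0.826 reads for Flag, vector MYC and POH1-Flag MYC) was taken as the genome-wide background, and, divided by the smallest peak width, which stood for the fragment length, as relative depth. Read totals were not used here. Shared sites were peaks that were each other's strongest partner with at least 1 bp in common. Ratios carry exact conditional Poisson 95% intervals. These cover counting error only, and reads kept as PCR duplicates would make them too narrow. Genes and promoters came from RefSeq tables of GRCm38.p6. Gene ends ignore strand, and exons or introns were not annotated. The solution was tested on data simulated with the same formulas, which checks the solving only.

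With 1 library per group no test between groups was made. The 10 genes, the pathway lists and the rules were chosen with earlier results of these data known. Named list genes were the 3 with the largest −log10 q in POH1-Flag MYC and those with a gene-end peak in 1 MYC library only. Lats1, Fat1, Fat4, Dchs1 and Vgll1 to Vgll3 were named after their values were seen. Alternatives were other thresholds, distances, windows, overlap rules, list lengths and scalings. Python 3.11.15 and scipy 1.17.1 were used.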

Additional observations from a re-analysis of the deposited data

How the results depend on the processing

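The gene-end counts were the same with summits within 500 bp or 2 kb and with any peak overlap. Within 500 bp 25.2% of all genes had a gene-end peak in vector and 36.1% in POH1-Flag cells. Within 2 kb the shares were 30.8% and 43.5%, and for any peak overlap they are not given. In vector cells the gene-end counts fell from 7 genes to 2 with a −log10 q threshold of 5, to 0 with one of 10 and to 4 at a fold of at least 5. The shares of all genes at these limits were 18.9%, 6.91% and 19.7%. In POH1-Flag cells they fell from 9 to 3 at a −log10 q of at least 10. The number found in POH1-Flag cells only rose from 2 to 7 at a −log10 q of at least 5, because fewer vector peaks pass that limit. At this limit 18.9% of all genes had a gene-end peak in vector cells and 33.9% in POH1-Flag cells. The share of all genes with one in POH1-Flag cells only is not given at this limit, so the 7 cannot be read as particular to these genes. Farther peaks numbered 1 for Flag, 14 for vector MYC and 32 for POH1-Flag MYC. With 20 kb around the gene there were 0, 10 and 21 in the same order, and with 100 kb there were 2, 28 and 55. A −log10 q threshold of 10 left 0, 1 and 10, and one of 5 left 1, 8 and 23. At a fold of at least 5 the count was 9 and 18 in the MYC lists. Equal list lengths left 20 in POH1-Flag cells. Farther peaks over all genes are not given at these settings, so these counts cannot be read as particular to the 10 genes. At a −log10 q of at least 5 the vector counts of upstream regulators, of STRIPAK and turnover genes and of further signature genes fell to 3, 3 and 2. These too are to be read beside the 18.9% of all genes. The median log2 pileup ratio of 0.72 moved to 0.0037 over local background, where the intragenic Tead3 site fell below 1 (0.939). Read counts, often under 20 per summit, leave most single ratios compatible with no difference. No paired analysis was possible because each group has 1 library.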
